A study of Mus musculus with 6 samples.

Results

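This account follows 8 coregulator genes of nuclear receptors in mouse epidermal keratinocytes with and without Med1, namely Ncoa1, Ncoa2, Ncoa3, Ep300, Crebbp, Ncor1, Nrip1 and Hr. They were chosen by name, and their probes were taken from the platform annotation by gene symbol. Of the 8 genes, 6 had a named probe, with 8 probes among the 25697 on the array. Of these, 3 genes with 4 probes were bright enough to be tested, among 7461 genes and 10386 probes tested in all. The tested genes were Ncoa1, Ep300 and Hr. Hr (hairless), a corepressor needed for hair regrowth, was lower in KO on both of its probes, at 73.2% and 70.4% of the control level. Ep300 and Ncoa1 did not pass the test. Ncoa2, Ncoa3 and Nrip1 were at or near background, and Crebbp and Ncor1 had no named probe.

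Nuclear receptors are transcription factors that bind hormones, vitamins or lipids and then exchange one set of partner proteins for another. Without ligand many of them hold corepressors, which recruit histone deacetylases and keep target genes silent. With ligand they bind coactivators of the steroid receptor coactivator family, which bring in histone acetyltransferases, and then the Mediator complex, whose subunit Med1 makes the contact with the receptor. In epidermis the vitamin D receptor works with both kinds of partner, and hair follicles cycle only while the receptor and Hr are both present.

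Keratinocytes came from mice on a C57BL6 background at 10 wk of age, and both groups carried floxed Med1 (MED1 fl/fl). In the KO group Cre recombinase under the keratin 14 promoter excised Med1, whereas the control group (CON) had no Cre. This promoter acts in keratinocytes, so other cells of the epidermis keep Med1 in KO. There were 3 samples in each group, and the design text names skins of 2 mice per group, without saying which samples share a mouse or whether the pair was pooled for each sample. The p-values therefore measure only the spread between these arrays, which may be partly technical. Total RNA of trypsin-released epidermal cells was hybridized to 1-colour bead arrays. At this age the study describes CON skin as in the resting phase of the hair cycle and KO skin as shifted towards growth, so genotype and hair cycle phase cannot be told apart.

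The arrays were alike in quality, with 9866 to 10636 probes detected and a median intensity of 105.7 to 117.3 before normalization. Levels are log2 intensities after background correction and quantile normalization, each level's error is its SD (n = 3 arrays), and a probe counts as detected on an array where its detection p was below 0.01. A change is the KO mean minus the CON mean of these log2 levels, with its standard error (SE), and adjusted p-values come from limma with Benjamini-Hochberg adjustment over all tested probes. The 1 tested Med1 probe fell from 6.86 ± 0.21 to 5.90 ± 0.21 (change -0.96 ± 0.15, adjusted p = 0.0018). Where this probe lies relative to the excised exons is not known here. Of 10 keratinocyte markers 9 were tested, among them Krt14 and Krt5, and Perp was not above background on any array. Krt14 read 14.73 in both groups with an SD of 0 after quantile normalization, so its values say nothing of a change.

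The steroid receptor coactivators were looked at first. Ncoa1, the founding member of that family, read 8.53, 8.85 and 8.60 in the CON arrays and 8.85, 8.65 and 8.55 in the KO arrays (log2 levels on probe ILMN_2719784). The groups overlapped along nearly their whole range. The change was 0.02 ± 0.12 with a 95% interval of -0.26 to 0.31 (adjusted p = 0.91, limma). A change in Ncoa1 of more than 0.31 upwards or 0.26 downwards on the log2 scale lies outside that interval.

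Ncoa2, the second member of the family, had a pair of probes. On ILMN_1256574 the deposited intensities were 133.7, 110.4 and 129.9 in CON and 111.9, 123.7 and 109.6 in KO. CON replicates 1 and 3 were detected (detection p-values of 0.0038 and 0.0013), while KO replicate 2 just missed the limit at 0.01003. The intensities of the groups overlapped. On ILMN_1259910 the intensities lay between 100.7 and 107.4 in CON and between 102.4 and 119.0 in KO, and 0 of 6 arrays detected it. Neither probe reached the 3 arrays required for testing, so no change is given for Ncoa2.

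Ncoa3, the third member, had 1 probe (ILMN_1225608) with intensities of 94.9 to 105.0 in CON and 100.2 to 102.1 in KO. Its detection p-values ran from 0.223 to 0.929, and no array separated it from the negative control beads. These values say that the probe was not well above background. They do not say whether the transcript was absent.

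**Figure D1:**
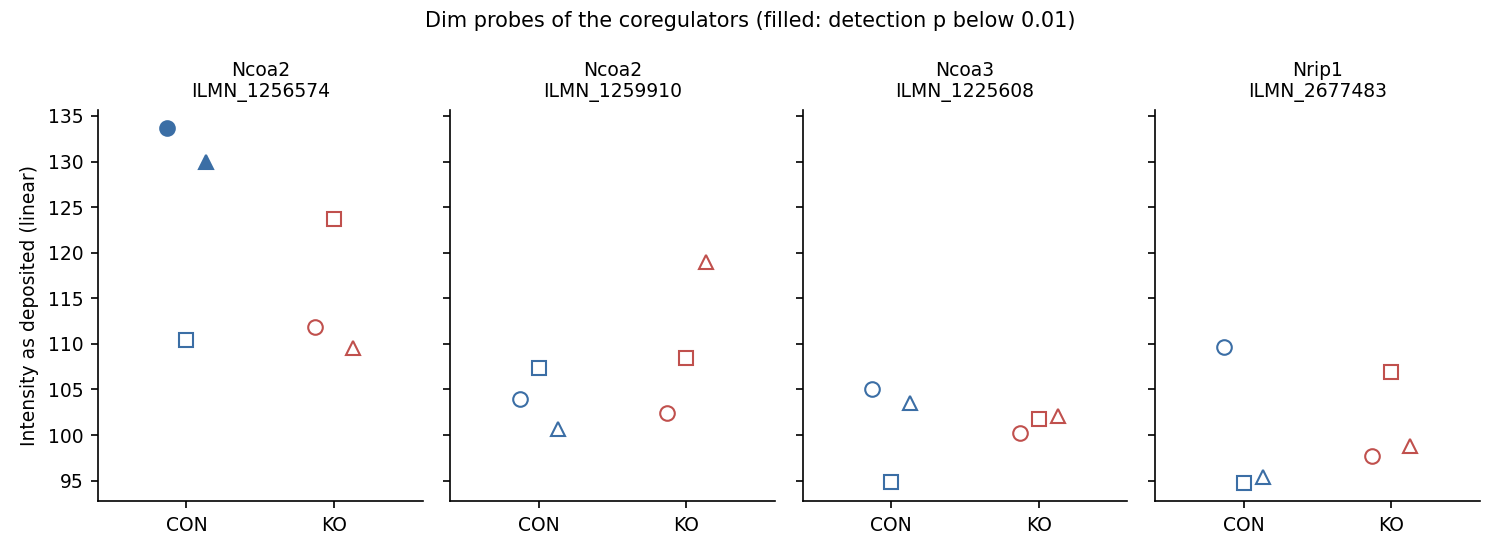
Deposited intensity (linear scale, y axis not starting at 0 and shared by the panels) of the dim probes of Ncoa2, Ncoa3 and Nrip1 in each CON (blue) and KO (red) array, with circles, squares and triangles for replicates 1, 2 and 3 and filled symbols where the detection p was below 0.01. Only CON replicates 1 and 3 on probe ILMN_1256574 of Ncoa2 are filled.

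Ep300 and Crebbp encode the paired histone acetyltransferases that these coactivators bring to chromatin. Ep300 (probe ILMN_2800358) read 9.64, 9.47 and 9.61 in CON and 9.28, 9.51 and 9.26 in KO (log2 levels). In 2 of 3 KO arrays it lay below every CON array, and KO replicate 2 fell inside the CON range. The means were 9.57 ± 0.09 in CON and 9.35 ± 0.14 in KO. The change of -0.22 ± 0.11 did not pass the test (95% interval -0.47 to 0.03, adjusted p = 0.17, limma). Crebbp had no probe under its symbol, its Entrez ID or its transcripts among the named probes, and 1719 probes were unnamed here.

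Among the corepressors, Ncor1, the scaffold that carries histone deacetylase to receptors without ligand, likewise had no named probe. Nrip1 binds receptors with ligand and recruits repressors to them, and is best known for restraining energy use in fat cells. Its probe (ILMN_2677483) had deposited intensities of 109.7, 94.7 and 95.4 in CON and 97.7, 106.9 and 98.8 in KO. Detection p-values were 0.236 to 0.932, so Nrip1 was not well above background on any of the 6 arrays.

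Hr is a nuclear corepressor with a JmjC domain that binds the vitamin D, thyroid hormone and retinoid-related orphan receptors. Mice and people without it lose their hair after the first coat, because follicles cannot start a new cycle. On its brighter probe (ILMN_2800687) the log2 levels were 12.58, 12.43 and 12.49 in CON and 12.13, 12.02 and 12.00 in KO. Every KO array lay below every CON array. The deposited intensities before any normalization, 7079.6, 5265.2 and 5247.4 in CON and 3870.5, 4447.1 and 4763.1 in KO, did not overlap either.

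The mean level of this Hr probe was 12.50 ± 0.08 in CON and 12.05 ± 0.07 in KO. The change was -0.45 ± 0.10, a level 1.37-fold lower in KO (95% interval -0.67 to -0.23, adjusted p = 0.0090, limma). Since these are bulk samples, less Hr RNA per cell and fewer Hr-expressing cells cannot be told apart.

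The dimmer Hr probe (ILMN_1220617) gave 9.45, 9.80 and 9.63 in CON and 9.08, 9.17 and 9.10 in KO (log2 levels). Again no KO array reached the CON range, and the spread was wider in CON (SD 0.17) than in KO (SD 0.05). Its change was -0.51 ± 0.11, a 1.42-fold lower level (95% interval -0.76 to -0.25, adjusted p = 0.011, limma). Both probes are annotated to the same transcript and read the same RNA samples, so they are repeated readings and not independent evidence.

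**Figure D2:**
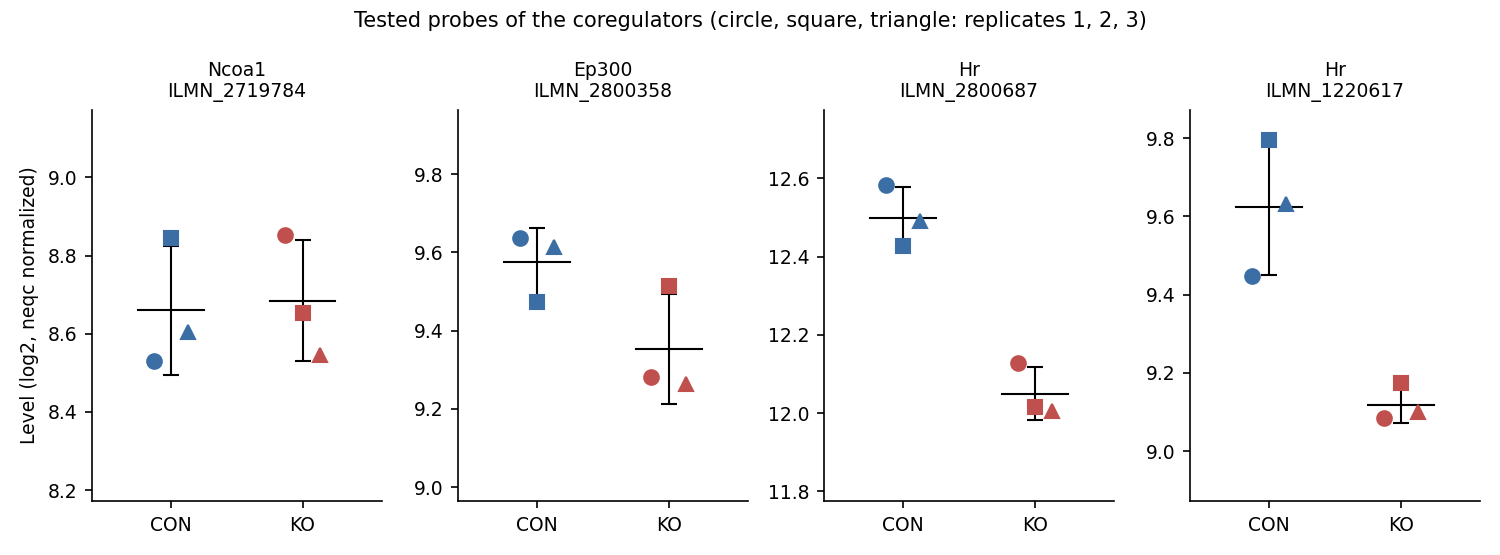
Log2 level of the 4 tested probes of Ncoa1, Ep300 and Hr in each CON (blue) and KO (red) array, with circles, squares and triangles for replicates 1, 2 and 3, the mean as a line and the SD (n = 3) as a bar, and y axes that each span the same range. Both Hr probes are lower in all 3 KO arrays, Ep300 in 2 of 3, and the Ncoa1 groups overlap.

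Of the 3 tested coregulators, then, 1 was called lower (Hr) and 0 higher, where 14.7% of all tested genes were called lower and 14.1% higher. Groups that did not overlap with KO lower, as for Hr, were found in 22.5% of all tested genes, and in 45.2% in either direction. A change at least as far down as that of the brighter Hr probe was found for 11% of tested genes, 820 in number, and the median change over all tested genes was -0.0015.

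An exact permutation test over the arrays, two-sided, gave p = 0.1 for each Hr probe, the smallest value that 3 arrays against 3 allow, p = 0.2 for Ep300 and p = 0.7 for Ncoa1. The differences between changes were tested in the same way for the 6 pairs of probes. The Ncoa1 value lay 0.47 above that of the brighter Hr probe (exact p = 0.1, adjusted over the pairs 0.2) and the Ep300 value 0.23 above it (exact p = 0.1, adjusted 0.2). Both Hr probes differed from each other by 0.06 (exact p = 0.9). None of these can pass the threshold with 3 arrays a group, so Hr is not shown to differ from the other members in its change.

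The call of Hr ended with 1 of the 18 other settings. When arrays were scaled by their medians only, the changes were -0.38 and -0.50 and neither probe passed (adjusted p = 0.15 and 0.053, limma), while under the remaining 17 both probes kept their call at an adjusted p of 0.05. At the unadjusted threshold of the study's methods the dimmer probe did not pass.

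**Figure D3:**
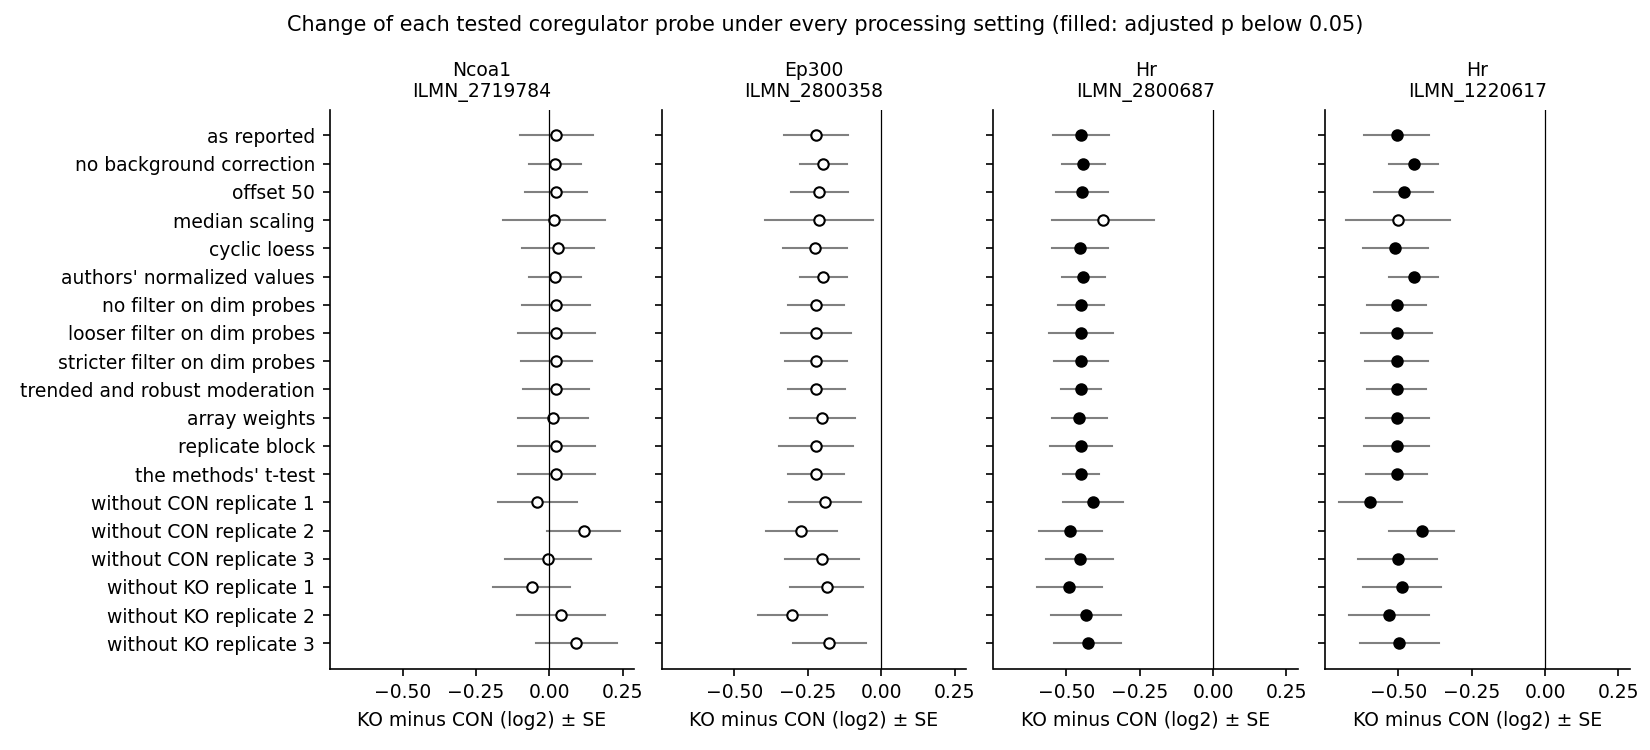
Change (KO minus CON, log2, with its SE as a bar) of each tested probe as reported and under 18 other settings, with filled symbols where the adjusted p was below 0.05. Both Hr probes lie left of 0 throughout and are filled except with median scaling, Ep300 lies left of 0 and is open throughout, and Ncoa1 lies on either side of 0.

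The genes whose profile over the 6 arrays was most like that of Hr were found by the Euclidean distance between mean-centred log2 levels, a description with no test. Genes with Gm, Rik, LOC or accession-type names were left out, and each gene stood by its tested probe with the highest mean. For the brighter probe these were Rhbdf1 (distance 0.04, change -0.43), which encodes an inactive rhomboid protein, Rbm48 (0.05, change -0.46), an RNA-binding protein gene, and Senp7 (0.07, change -0.46), a SUMO protease gene. For the dimmer probe they were Yipf6 (0.09, change -0.50), Pias3 (0.11, change -0.58), which encodes a SUMO ligase, and Pip4k2b (0.12, change -0.42), a lipid kinase gene. The probes shared none of these genes.

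The receptors that Hr binds were read beside it. Vdr, the vitamin D receptor gene, had log2 levels of 10.76, 10.87 and 10.72 in CON and 10.72, 10.69 and 10.77 in KO. The groups overlapped, and the change of its brightest probe was -0.06 (95% interval -0.27 to 0.15, adjusted p = 0.70, limma). The other tested Vdr probes had changes of -0.25 ± 0.12 (adjusted p = 0.16) and 0.05 ± 0.13 (adjusted p = 0.83). Rora, a retinoid-related orphan receptor gene, read 9.39, 9.67 and 9.10 in CON and 8.99, 9.11 and 8.99 in KO, with a change of -0.36 ± 0.14 that did not pass (adjusted p = 0.10). It passed under 5 of 18 other settings. Thra was detected on 2 CON arrays and 1 KO array (change -0.31 ± 0.26, adjusted p = 0.42), and Thrb was not above background on any array.

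Of 16 receptor genes listed, 8 were tested, of which 1 rose and 1 fell (25%, against 28.8% of all tested genes, with a median change of -0.13). Pparg, the receptor of lipid-storing cells and also 1 of the sebaceous gland markers given further on, rose by 2.42 ± 0.16 (adjusted p = 2.9e-05), from 5.45 to 6.03 in CON to 8.04 to 8.38 in KO. Without background correction the Pparg change was 1.43. The other Pparg probes (ILMN_1221594 and ILMN_1221893) were not above background on any array, so the change rests on a single probe. Rarg, the main retinoic acid receptor of epidermis, fell by 0.49 ± 0.10 (adjusted p = 0.0098), with levels of 9.83, 10.00 and 9.81 in CON and 9.27, 9.48 and 9.42 in KO. Its second tested probe had a change of -0.22 (adjusted p = 0.11), and the Rarg call ended with median scaling (adjusted p = 0.079).

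Hr has been reported to repress Sostdc1, which encodes a secreted modulator of Wnt signaling, and Dkkl1, which encodes a secreted protein, in mouse skin. Sostdc1 had a change of 0.27 ± 0.12 (adjusted p = 0.13) and Dkkl1 of -0.17 ± 0.11 (adjusted p = 0.31). These are the values of the brightest probes, and neither passed the test. The second tested Dkkl1 probe (ILMN_2752580) fell by 0.49 ± 0.15 (adjusted p = 0.039, limma), with KO below CON on all arrays. The difference between the Dkkl1 probes was not tested. Sostdc1 passed under 3 of 18 other settings (adjusted p 0.026 to 0.041) and the brightest Dkkl1 probe under 0.

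Other corepressors and deacetylases were taken from a list of 28 genes, of which 22 had a named probe and 17 were tested. Of these, 2 rose and 0 fell (11.8%, against 28.8% of all tested genes), and their median change was 0.06. These counts depended on the setting. With trended and robust moderation 3 of 17 rose and 3 fell, beside 1264 and 1270 of all 7461 tested genes. Hexim1, which holds back the elongation factor P-TEFb and also binds steroid receptors, had log2 levels of 8.59, 8.74 and 8.67 in CON and 9.30, 9.25 and 9.43 in KO. All KO arrays were above all CON arrays, by 0.66 ± 0.10 on average (1.58-fold, adjusted p = 0.0017), and Hexim1 kept its call under all 18 other settings.

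Sap30, a subunit of the Sin3 deacetylase complex, read 10.05, 10.00 and 10.03 in CON and 10.28, 10.30 and 10.38 in KO. The groups did not overlap, and the change was 0.29 ± 0.09 (adjusted p = 0.039). This call ended under 10 of 18 other settings, among them leaving out any 1 of the 6 arrays (adjusted p 0.066 to 0.12).

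The enzyme and scaffold partners of Ncor1 did not pass the test. Hdac3, the deacetylase of that complex, had levels of 9.84, 9.70 and 9.59 in CON and 10.13, 10.13 and 9.72 in KO (change 0.28 ± 0.14, adjusted p = 0.16). It passed without KO replicate 3 (change 0.42, adjusted p = 0.046). Tbl1x had a change of -0.10 ± 0.24 and Gps2 of 0.0021 ± 0.10 (95% interval -0.23 to 0.23). Tbl1xr1 was not above background on any array. The remaining 12 tested genes of the list ranged in change from -0.32 to 0.35, and none of them passed on its brightest probe. Hdac5, a class II deacetylase gene named here after its values were seen, fell on 1 of its 3 tested probes.

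Other coactivators came from a list of 32 genes, with 28 named on the array and 20 tested. Of these, 1 rose and 1 fell (10%, against 28.8% of all tested genes), and their median change was -0.08. The count of 1 higher is Fhl2, which entered the test only through its KO arrays, and without it 0 of 19 rose and the median change was -0.12. Fhl2, a LIM-only protein that coactivates the androgen receptor, was not detected on any CON array (4.69, 4.37 and 4.58) and was detected on all KO arrays (6.65, 6.38 and 6.75). It was at least 2.60-fold higher in KO (adjusted p = 2.4e-05, limma, and 0.00011 with no detection filter), a bound that takes, for each CON array, the dimmest signal that still counted as detected.

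Prmt2, an arginine methyltransferase that coactivates steroid receptors, read 9.27, 9.37 and 9.29 in CON and 8.84, 8.78 and 8.72 in KO. Every KO array was lower, with a change of -0.53 ± 0.09 (1.44-fold, adjusted p = 0.0035). The other Prmt2 probe fell as well (change -0.42 ± 0.09, adjusted p = 0.0094). The brighter probe kept its call under all 18 other settings. The remaining 18 tested coactivators ranged in change from -0.34 to 0.34.

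**Figure D4:**
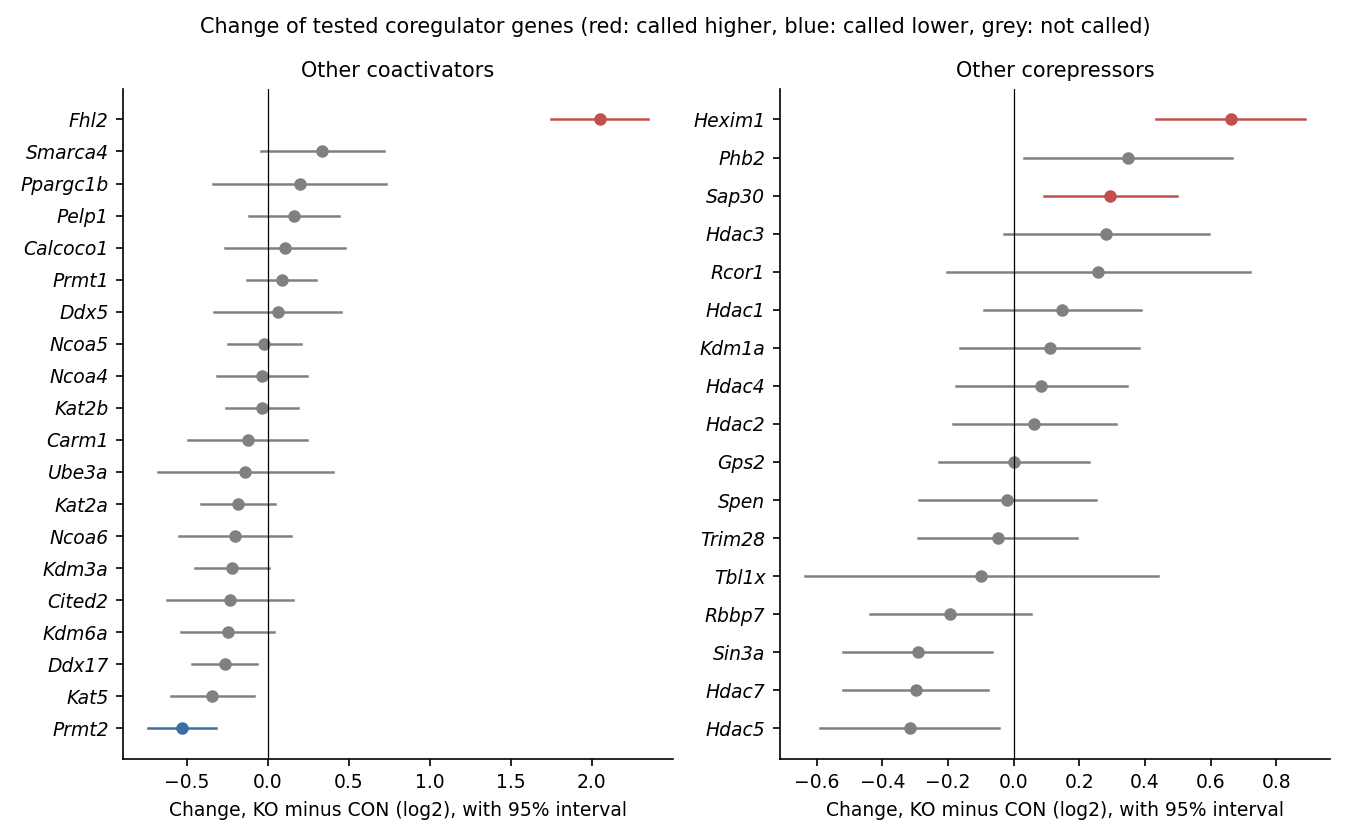
Change (KO minus CON, log2, with its 95% interval as a bar) of the 20 tested genes of the coactivator list and the 17 of the corepressor list, in red where called higher, blue where called lower and grey where not called. Fhl2, Hexim1 and Sap30 are called higher and Prmt2 lower; the Fhl2 value is the fitted change of 2.05, for which the text gives a bound.

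Markers of skin compartments and of other cells were read in the same arrays as Hr, where 14.7% of all tested genes were called lower and 14.1% higher. Summed intensities, here and in the next paragraph, add the normalized levels on the linear scale, over the tested markers only. Of 7 bulge markers, genes of the hair follicle stem cell niche, all were tested and 4 fell, and their summed intensity was 13038 to 13678 in CON and 5597 to 6183 in KO. That sum mostly follows Krt15 (CON mean 13.47, next Nfatc1 at 10.39), whose protein the study also saw in keratinocytes outside the bulge. Lhx2 (change -0.44), Tcf7l2 (0.13) and Sox9 (0.03) were not called. Of 8 hair matrix markers 5 were tested and 3 fell (summed intensity 4418 to 4895 in CON and 2737 to 2946 in KO), while Lef1 and Foxn1 were at background throughout. This sum mostly follows Gata3 (CON mean 11.93, next Krt71 at 8.61). Dlx3 (change 0.27) and Hoxc13 (0.20) were not called. Of 9 tested keratinocyte markers 3 fell (83214 to 86936 in CON and 73446 to 75552 in KO), a sum that includes the constant Krt14 level. Of 8 sebaceous gland markers 5 were tested and 5 rose, with Scd3 and Fasn not above background. The tested markers summed to 900.1 to 1010 in CON and 3608 to 3772 in KO. Elovl3, which is in that count and sum, entered the test only through its KO arrays, and without it 4 of 4 rose.

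Among the other cells that a trypsin digest could hold, 3 of 4 tested melanocyte markers of 7 fell (684.4 to 735.4 in CON and 339.3 to 360.3 in KO) with Tyr not above background. Each count here stands beside the same 14.7% lower and 14.1% higher of all tested genes. Of 6 Langerhans cell markers 5 were tested and 4 fell (5534 to 6368 in CON and 3400 to 3739 in KO), and Ptprc was not above background. Of 6 T cell markers 4 were tested and 3 rose (2565 to 2851 in CON and 3315 to 3852 in KO). Of 8 fibroblast markers 2 were tested, of which Dcn fell, while Col1a1, Col1a2, Col3a1, Lum and Pdgfra were at background. Of 5 endothelial and 4 adipocyte markers 0 were tested, and of 3 erythrocyte markers the 1 tested, Hba-a1, fell (change -0.89). The part of these shifts in the change of Hr and of the other coregulators was not tested.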

How the data were processed

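Expression was measured in 6 samples on 1-colour Illumina bead arrays. The authors deposited an intensity for each probe and array, exported from GenomeStudio (2011.1 per the submitters' processing notes) without normalization or background subtraction, with a detection p-value that the authors deposited beside it. A second deposited table holds intensity values after normalization by the authors, used as an alternative only. No genome build is given with the deposited data, so no coordinates are printed.

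In R 4.3.3, neqc (limma 3.58.1) removed the background inferred from the detection p-values, with an offset of 16, quantile normalization and log2. Changes of dim probes depend on this step. Those of Fhl2 (2.05) and Pparg (2.42) were larger here than without background correction (0.78 and 1.43). Probes with a detection p below 0.01 on at least 3 arrays, whatever the group, entered a two-sided limma fit (lmFit, eBayes) of KO against CON without covariates, with calls at an adjusted p of 0.05. The fit was tested on simulated data with independent noise on each array, which does not model samples that share a mouse. Intensities carry no counts, and the number of arrays limits the precision. Names came from the platform annotation (23978 probes with 1 symbol, 0 with several, 1719 unnamed), checked by Entrez ID against RefSeq GRCm38.p6. A gene is represented by its tested probe with the highest mean.

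The 8 members and the gene lists were chosen with earlier results of these data known. Named were all members with every probe, up to 5 called genes per direction of each coregulator and receptor list, and fixed partners of Ncor1 and Hr. A probe undetected throughout 1 group is given as a bound. The alternatives were other background, normalization, filter and variance settings, array weights, a replicate block, the methods' t-test and leaving out each array. That t-test is named in the methods for the study in general. Their cutoff of 0.005 was set for array data in pathway software, and joining it to the t-test was done here. Planned counts of receptor-binding motifs in the proteins were not run. Same-numbered arrays of the groups did not deviate together (r = -0.03, 0.07 and -0.05 across probes), so they were not paired.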

Additional observations from a re-analysis of the deposited data

How the results depend on the processing

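Both Hr probes lay lower in KO under all 18 alternatives (changes -0.49 to -0.38 and -0.59 to -0.42). With median scaling the calls ended (-0.38 and -0.50, adjusted p = 0.15 and 0.053), so 0 members were called lower, and over all tested genes 610 were higher and 678 lower against 1053 and 1096 as reported; the cause was not tested. With a t-test at the study's pathway cutoff, an unadjusted p below 0.005, the brighter Hr probe passed (0.0017) and the dimmer one did not (0.0084). With the replicate block the Hr changes stayed at -0.45 and -0.51 (adjusted p = 0.021 and 0.017), and the block ended the call of Sap30 (change 0.29, adjusted p = 0.085), so that 1 corepressor rose, and no other call among the members and these lists. Leaving out 1 array gave changes of -0.49 to -0.41 and -0.59 to -0.42 for the Hr probes, -0.30 to -0.18 for Ep300 and -0.060 to 0.12 for Ncoa1, whose direction turned without CON replicate 1 (-0.041), CON replicate 3 (-0.0042) or KO replicate 1 (-0.060). The counts of the lists over those 6 fits were 1 to 2 coactivators higher and 1 to 2 lower, 1 to 2 corepressors higher and 0 to 1 lower, and 1 to 2 receptors lower. Over all 7461 tested genes those 6 fits called 766 to 939 higher and 788 to 954 lower. The replicate block called 925 higher and 953 lower of the same genes.

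Coactivators lower numbered 3 without background correction, with offset 50, on the authors' normalized values, with the stricter filter and with trended and robust moderation, and 2 with cyclic loess, array weights and the methods' t-test (also at its unadjusted threshold). Corepressors lower numbered 3 without background correction, with offset 50, on the authors' values and with trended and robust moderation, 2 with the stricter filter and array weights, and 1 with cyclic loess. Corepressors higher numbered 1 with median scaling, cyclic loess and the looser filter, and 3 without background correction, with offset 50, on the authors' values and with trended and robust moderation. Over all 7461 tested genes, 1237 were higher and 1255 lower without background correction, and 1181 and 1215 with offset 50. On the authors' values these counts were 1238 and 1256, and with trended and robust moderation 1264 and 1270. They were 1072 and 1086 with cyclic loess, 1091 and 1124 with array weights, and 758 and 739 with the methods' t-test. The stricter filter left 18 coactivators and 17 corepressors, beside 997 higher and 1011 lower of 6589 genes. The looser filter tested 18 corepressors, beside 929 higher and 972 lower of 10073 genes. At the t-test's unadjusted threshold no count over all genes was made. The fitted change of Fhl2 was 0.78 and that of Pparg 1.43 without background correction and on the authors' values. Receptors lower numbered 2 without background correction, with offset 50, on the authors' values and with trended and robust moderation, and 0 with median scaling and at the t-test's unadjusted threshold. With the stricter filter 0 coactivators rose, since Fhl2 was no longer tested. Gps2 turned to -0.023 with median scaling and ranged from -0.052 to 0.073 when 1 array was left out, turning without CON replicate 1, KO replicate 1 or KO replicate 2. Tbl1x ranged from -0.36 to 0.17 and turned without CON replicate 1. With no filter the probes of Ncoa2 had changes of 0.24 and -0.23, Ncoa3 of 0.02 and Nrip1 of 0.05 (adjusted p 0.40 to 0.96). Signal over background, not the test, limits what can be said of those 3 genes.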
